A study of Mus musculus with 230 samples.

Results

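The genes described here encode the enzymes that write or erase chemical marks on histones and DNA, together with the core Polycomb proteins. Membership was set by gene name, in a choice made with earlier results of these data known. The name pattern covered histone deacetylases, sirtuins, lysine methyltransferases and demethylases, arginine methyltransferases, acetyltransferases, Polycomb core proteins, DNA methyltransferases and TET dioxygenases. It was applied to the deposited tables. The pattern found 85 of 46983 gene names, and 65 of the 85 were found in 10% or more of the E15 cells or of the P2 cells. Detected means an RPKM (a read count scaled to transcript length and library size) of at least 1, and members that met the 10% limit are called measured. Of all genes, 7493 were measured.

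Expression was recorded in single sorted cells from C57BL/6 mice of the genotype Neurog2CreERT x Ai14+/+, in which a tamoxifen-dependent Cre recombinase under Neurog2 control turns on the red reporter tdTom. Tamoxifen was given 12 h before the tissue was taken, and the same allele, reporter and treatment apply to both groups, so no untreated or Cre-free group is part of the comparison. The E15 group holds 121 cells from the pallium at embryonic day 15, and the P2 group holds 109 cells from the subventricular zone, dorsal part, at postnatal day 2. Age and tissue therefore change together and cannot be told apart, and the labels name no animals, so each age counts as 1 sample and no test between ages was possible. The mix of sexes, read from transcripts, differed between the ages as well. Cells with a Y-linked transcript and no Xist numbered 27 at E15 and 62 at P2. Those with Xist and no Y-linked transcript numbered 46 and 8. The cell titles have 2 formats at each age, which are called plates below: E15 set A with 60 cells, E15 set B with 61, P2 plate 1 with 55 after 1 column listed at 0 for every gene was left out, and P2 plate 2 with 53. The plates may come from different capture runs, and this grouping is read from the titles only.

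Acetyltransferases add acetyl groups to histone lysines, which loosens chromatin, and deacetylases and sirtuins take them off. Methyltransferases mark histone lysines with opposite associations: methylated H3K4 is found at active promoters and enhancers, while methylated H3K9 and H3K27 mark silent chromatin. Polycomb repressive complex 2, with the enzyme EZH2 and its partners EED and SUZ12, writes H3K27 methylation, and Polycomb repressive complex 1, with RNF2 and BMI1, ubiquitinates histone H2A. In the developing cortex Polycomb activity is known to time the order in which progenitors produce neurons and glia. Neurog2 marks progenitors committed to glutamatergic neurons, and Eomes marks the intermediate progenitors that descend from radial glia.

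The cells of the P2 group had fewer genes detected. The median was 2867 genes at E15 (highest 4329) and 2025 at P2 (highest 3339), and 1 P2 plate 2 cell with few genes held none of the enzymes. The reads per cell recovered from the steps of the RPKM values had medians of 6.50 M and 5.90 M (M, mega). The labels call the cells glutamatergic progenitors. Markers of glutamatergic neurons were present at both ages, with 6 of 7 genes in at least 10% of cells at each, but their summed level had a median of 927 RPKM at E15 and 215 RPKM at P2. Intermediate progenitor genes reached the same limit for 6 of 6 genes at E15 and 4 of 6 at P2, with median sums of 91.8 and 59.7 RPKM, and radial glia genes for 3 of 7 and 4 of 7, with sums of 7.63 and 16.1 RPKM. Interneuron genes were at or near 0 at E15 and reached 136.8 RPKM in the highest P2 cell, with Gad1 and Lhx6 at 0 there and 1 of 6 genes in at least 10% of cells. Oligodendrocyte, astrocyte, microglia, endothelial and red blood cell genes were each in fewer than 10% of cells at both ages. At least 3 of 27 cell cycle genes were detected in 37 E15 and 32 P2 cells. How much any of these differences contributes to the values below was not tested, except where cells were matched or left out.

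Promoters of this enzyme family are rich in CpG dinucleotides, and 4 are printed because the results turn on their genes: Hdac2 and Ezh2, the members lower by at least 1 log2 unit at P2 in every pair of plates, Kmt2d, a member higher at P2, and Hdac9, whose difference between cells with and without Eomes had opposite signs at the 2 ages. RefSeq start sites (GRCm38.p6) were matched for 73 of the 85 members. In the 250 bases upstream, the median number of CpG dinucleotides was 17 for these members and 6 over 27025 genes. Those genes include many not measured here. No value was taken over measured genes alone, so the richness is not read as particular to these enzymes. Sequences run 5′ to 3′ on the gene's strand, annotated exons are left out, and capitals mark the motifs found on either strand. An SP/KLF box is spelled GGGCGG here. A CCAAT box is spelled as its name says, and the E-box searched for was CAGATG. No 2 matches overlap.
Hdac2, chr10:36974294-36974543, plus strand: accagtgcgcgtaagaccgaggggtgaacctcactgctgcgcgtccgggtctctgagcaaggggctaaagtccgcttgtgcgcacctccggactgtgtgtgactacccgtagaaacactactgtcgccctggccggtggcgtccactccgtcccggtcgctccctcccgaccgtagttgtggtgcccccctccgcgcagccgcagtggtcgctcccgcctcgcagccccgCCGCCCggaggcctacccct
Ezh2, chr6:47595059-47595183, minus strand: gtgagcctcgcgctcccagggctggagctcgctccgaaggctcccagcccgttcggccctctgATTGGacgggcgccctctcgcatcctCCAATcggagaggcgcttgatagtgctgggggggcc
Kmt2d, chr15:98871206-98871455, minus strand: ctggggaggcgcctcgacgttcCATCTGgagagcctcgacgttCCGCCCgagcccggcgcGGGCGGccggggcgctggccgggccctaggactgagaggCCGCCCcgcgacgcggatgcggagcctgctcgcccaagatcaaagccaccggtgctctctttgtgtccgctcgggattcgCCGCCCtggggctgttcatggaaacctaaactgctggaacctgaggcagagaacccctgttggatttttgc
Hdac9, chr12:34917096-34917345, minus strand: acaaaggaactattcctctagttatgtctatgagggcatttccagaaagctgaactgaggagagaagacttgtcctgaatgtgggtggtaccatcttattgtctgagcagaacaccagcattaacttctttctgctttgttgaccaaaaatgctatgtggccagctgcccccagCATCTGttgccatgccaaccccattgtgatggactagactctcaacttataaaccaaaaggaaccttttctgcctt
The Hdac2 window holds 27 CpG dinucleotides and 1 SP/KLF box, and the Kmt2d window holds 26 with 4 such boxes and 1 E-box. The Ezh2 stretch, which covers 125 bases, holds 11 CpG dinucleotides and 2 CCAAT boxes on opposite strands, the upstream one on the minus strand. The printed Hdac9 window differs, with 0 CpG dinucleotides and 1 E-box. Hdac9 has 2 RefSeq windows, and only the first listed is described here. Among the 73 windows of members, 61.6% held an SP/KLF box against 32.9% of all windows, 41.1% held a CCAAT box against 34.5%, and 8.22% held the E-box against 14.5%. The T-box half-site GGTGTGA was in 1.37% of member windows and 3.31% of all. These are matches of letters and describe the windows only.

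Transcripts of most measured enzymes were lower in P2 cells, with the largest difference in the deacetylase gene Hdac2. The level of a gene is the mean over cells of log2(RPKM + 1), the difference is P2 minus E15 on that scale, and its range is given over the 4 combinations of 1 E15 plate with 1 P2 plate. A member counts as lower or higher when the sign is the same in every pair. By this rule 40 of 65 measured members were lower, 4 were higher and 21 were mixed, against 50.5% lower and 8.97% higher among all measured genes. The median difference of the members was -0.32, and that of all measured genes was -0.24. A size of at least 1 in each pair was reached by 2 members, Hdac2 and Ezh2, both lower (background 2.11%), and by 0 members in the higher direction (background 0.561%). For 38 of the 65 members the difference between ages was larger than either difference between plates of 1 age. This count was not taken over all measured genes, so it is not read as a trait of the members. The standard deviation over members was 0.459 for the ages, 0.315 for the E15 plates and 0.274 for the P2 plates. Over all measured genes it was 0.475, 0.378 and 0.345.

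**Figure D1:**
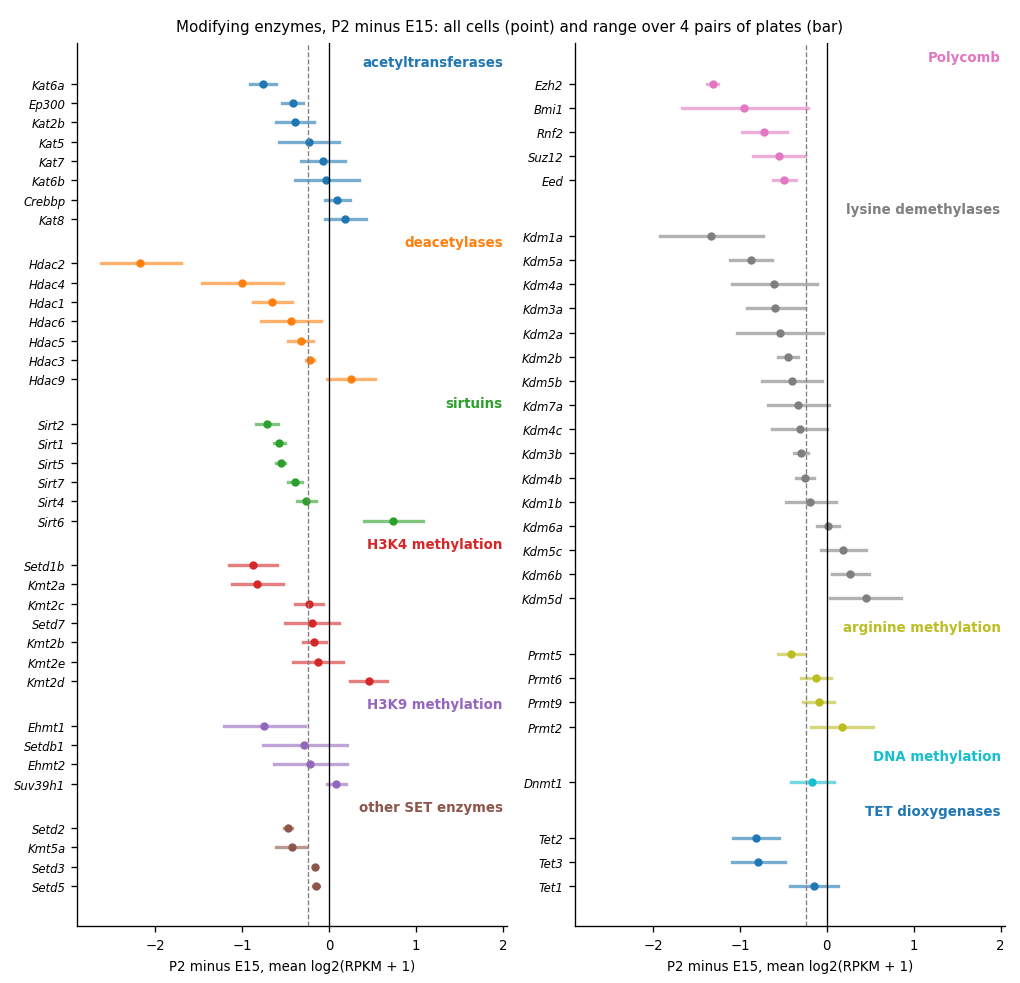
Difference between ages of the 65 measured enzymes, by class, in mean log2(RPKM + 1) (x axis); points are all cells, bars the range over 4 pairs of plates, and the dashed line the median of all measured genes. Hdac2 lies farthest to the left at -2.17 and Sirt6 farthest to the right at 0.74.

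Because P2 cells had fewer genes detected, the count of lower members was also taken in 80 cells, 40 of each age, matched on detected genes (medians 2391.5 and 2392.5). There 17 of 67 measured members were lower and 10 were higher in every pair, against 21.1% and 25% of all measured genes. The median difference was -0.003 for the members and 0.039 for all measured genes. Of the 40 lower members, 39 were measured there and 14 kept the sign in every pair. All 4 higher members did. Over all measured genes, too, lower calls became fewer (50.5% to 21.1%) and higher calls more (8.97% to 25%). How many of all genes kept their sign was not counted. Matched cells differed in other ways: 10.0% of the E15 and 47.5% of the P2 cells had at least 3 cell cycle genes, and 13 E15 and 0 P2 cells had more than 20% of their RPKM from mitochondrially encoded genes. Lower members thus outnumbered higher ones in all cells and, by less, in matched cells, where more of all measured genes were higher than lower. The differences of Hdac2 (-1.66), Hdac4 (-1.21), Kdm3a (-1.03), Sirt5 (-0.74), Tet2 (-0.75) and Sirt6 (1.18) kept their sign in every pair of plates in both.

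**Figure D2:**
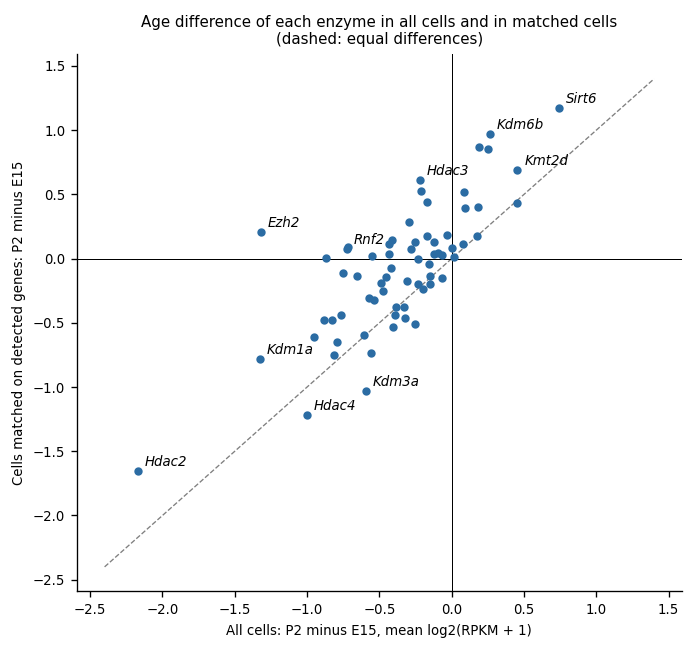
Difference between ages of each enzyme in all cells (x axis) and in the 80 cells matched on detected genes (y axis), both in mean log2(RPKM + 1); the dashed line marks equal differences. Most points lie above the line, Ezh2 moves from -1.32 to 0.21, and Hdac2 stays lowest at -1.66.

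Erasers of acetyl groups were mostly lower at P2, led by Hdac2. Of the 13 measured deacetylases and sirtuins, 11 were lower (84.6%) and 1 was higher (7.69%), with a median of -0.44, whereas 3 of 8 acetyltransferases were lower (37.5%) and none was higher, with a median of -0.15. The shares of all measured genes, against which these and the class counts below are read, were 50.5% and 8.97%. Among the lower erasers, Sirt1, Sirt4, Sirt5, Sirt7 and Hdac5 counted as measured through E15 cells only, as did the lower acetyltransferase Kat2b. For such genes the limit itself favours a lower sign at P2. The same limit was applied to all measured genes, and the class shares were not taken without these genes. Hdac2, which encodes a class I deacetylase of the Sin3, NuRD and CoREST corepressor complexes, lies at chr10:36974544-37001889 (GRCm38, GENCODE M21) with no overlapping exons. Its RPKM had a median of 15.4 over E15 cells, with 12 cells at 0 and a highest value of 150.0, and a median of 0.18 over P2 cells, with 47 cells at 0 and a highest value of 147.2. In the median E15 cell 1 RPKM of Hdac2 corresponded to 29.1 reads, and cells with Hdac2 detected held a median of 830.5 reads of it at E15 and 262.5 at P2. Highest values were alike, while both the share of cells with Hdac2 and its level in them (medians of 30.4 and 10.9 RPKM) were lower at P2. Hdac2 was detected in 78.3% of E15 set A and 73.8% of set B cells, and in 27.3% of P2 plate 1 and 43.4% of plate 2 cells. The 95% Clopper-Pearson intervals are 67.4% to 83.3% for all E15 cells and 26.2% to 45.0% for all P2 cells. Its difference was -2.17 (range -2.62 to -1.71), and a value between -3.43 and -1.62 was found under every alternative run.

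Hdac1, the closest relative of Hdac2, was lower as well, with detection in 39.7% of E15 and 18.5% of P2 cells and a difference of -0.65 (range -0.88 to -0.43), but its sign was not kept in every pair of matched cells (-0.13). Hdac4, a class IIa deacetylase that shuttles between nucleus and cytoplasm, was detected in 48.8% and 20.4% of cells and differed by -0.998 (range -1.46 to -0.53). About 22.4% of the Hdac4 exon length overlaps Gm26720 on the opposite strand, and the libraries carry no strand. Hdac3, the catalytic subunit of NCoR and SMRT complexes, differed by -0.22, and by 0.61 in matched cells. Hdac6 (-0.44) and Hdac5 (-0.32) were also lower, and Hdac9 was mixed (0.25, range -0.02 to 0.53).

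Sirtuins are deacylases that consume NAD. Sirt6, a nuclear enzyme that removes acetyl groups from histone H3 at chromatin, was the sirtuin with the higher level at P2. Mean Sirt6 RPKM was 9.25 and 9.28 in E15 sets A and B and 16.5 and 18.7 in P2 plates 1 and 2, and both P2 plates lay above both E15 plates. The share of cells with Sirt6 detected was similar (71.9% and 75.9%, intervals 63.0% to 79.7% and 66.7% to 83.6%), and the level among detecting cells had a median of 10.2 RPKM at E15 and 17.2 RPKM at P2. The difference was 0.74 (range 0.41 to 1.08), with values from 0.42 to 1.80 under the alternatives. The 5 other measured sirtuins were lower, and of these only Sirt2 met the limit for measured genes at P2 as well. Sirt1, a nuclear deacetylase, was detected in 20.0% and 18.0% of cells of the E15 plates and in 3.64% and 1.89% of cells of the P2 plates (-0.57, range -0.63 to -0.51). Sirt5 and Sirt4, which act in mitochondria, differed by -0.56 and -0.26, Sirt2, mainly a cytoplasmic enzyme, by -0.71, and the nucleolar Sirt7 by -0.39. Sirt2 lost its sign in matched cells (0.09).

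Acetyltransferases changed less. Crebbp, a coactivator with a broad range of targets, was among the most widely detected members, in 95.0% of E15 and 92.6% of P2 cells, with a median of 32.3 RPKM (highest 137.9) at E15 and 38.2 RPKM (highest 252.2) at P2. Its difference of 0.09 ranged from -0.04 to 0.24, so the plates overlapped. Ep300, which encodes the closely related p300, was detected in 37.2% and 15.7% of cells and was lower by the sign rule (-0.42, range -0.54 to -0.30). Kat6a, of the MYST family, differed by -0.76 (range -0.91 to -0.61) and Kat2b, the PCAF acetyltransferase, by -0.39. Kat6b, the relative of Kat6a, differed by -0.03 (range -0.40 to 0.34).

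**Figure D3:**
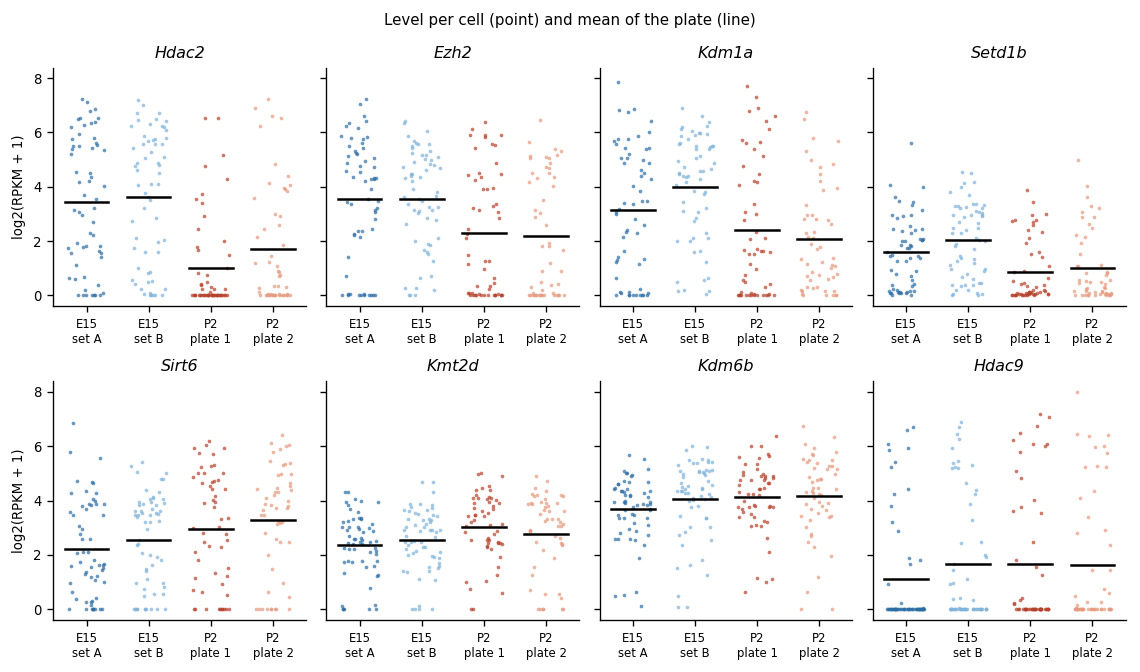
Level of 8 enzymes in every cell, as log2(RPKM + 1) (y axis), by plate (x axis); each point is a cell and each line the mean of the plate. Hdac2, Ezh2, Kdm1a and Setd1b have more cells near 0 in both P2 plates, while Sirt6, Kmt2d and Kdm6b have higher means there.

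The writers of H3K4 methylation moved in both directions. Among the 7 measured, 4 had lower and 1 had higher levels at P2, with a median of -0.20. Setd1b, a SET1-type promoter methyltransferase, was detected in 61.7% and 68.9% of E15 plates and in 30.9% and 32.1% of P2 plates (-0.88, range -1.15 to -0.60), and the plates of the ages did not overlap. Kmt2a, the MLL1 enzyme, was detected in 63.6% and 32.4% of cells (-0.82, range -1.12 to -0.52). Kmt2d, which writes H3K4 monomethylation at enhancers, was the higher member. Its mean RPKM was 5.77 and 6.60 in the E15 plates and 9.99 and 8.96 in the P2 plates, with detection in 89.3% and 87.0% of cells and a difference of 0.46 (range 0.24 to 0.67). Its partner in enhancer marking, Kmt2c, differed by -0.23 (range -0.39 to -0.07), and by 0.18 with mean RPKM compared on a log2 scale. Kmt2e, a divergent relative, was detected in 91.7% and 87.0% of cells at a mixed difference of -0.12.

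Among H3K9 methyltransferases 1 of 4 measured members was lower, with a class median of -0.25. Ehmt1 (GLP), detected in 81.8% of E15 and 67.6% of P2 cells, differed by -0.75 (range -1.21 to -0.27). Its partner Ehmt2 (G9a) differed by -0.22 and Setdb1 by -0.28, both with ranges that cross 0, and Suv39h1 by 0.09. All 4 measured members of the mixed class of other SET enzymes were lower: Setd2, which trimethylates H3K36, by -0.47 (range -0.52 to -0.43), Kmt5a, which monomethylates H4K20, by -0.43, Setd3 by -0.16 and Setd5 by -0.15. Setd3 and Setd5 turned to 0.0023 and 0.47 with mean RPKM compared on a log2 scale.

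Transcripts of all 5 measured Polycomb genes were lower in all cells, with the second lowest class median (-0.72) after the TET dioxygenases. None of the 5 kept the sign in every pair of matched cells. Ezh2 (chr6:47530139-47595341, GRCm38) had a median of 14.1 RPKM over E15 cells (10 cells at 0, highest 147.8) and 2.02 RPKM over P2 cells (29 at 0, highest 87.3). It was detected in 78.3% and 86.9% of cells of the E15 plates and in 56.4% and 52.8% of cells of the P2 plates, so the plates did not overlap. The difference of -1.32 had a narrow range of -1.38 to -1.25, and without cells with at least 3 cell cycle genes it was -1.37. In matched cells it was 0.21 (range -0.77 to 1.26), with detection in 70.0% and 67.5% of cells. Matching within cells without 3 cell cycle genes, an alternative added after the data were seen, gave -0.003 in 46 cells. Suz12 and Eed, the other subunits of the same complex, differed by -0.55 (range -0.85 to -0.25) and -0.49 (range -0.62 to -0.36), and by 0.02 and -0.19 in matched cells. Rnf2 differed by -0.72 and Bmi1 by -0.95, with a wide range for Bmi1 of -1.67 to -0.22, and by 0.08 and -0.61 in matched cells. Ezh1 and Ring1, the alternative catalytic subunits, were not measured: Ezh1 was detected in 7.44% of E15 and 5.56% of P2 cells and Ring1 in 2.48% and 1.85%.

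Lysine demethylases were the class with the most members, 16 measured, 9 of them lower (56.3%) and 2 higher (12.5%), near the 50.5% and 8.97% of all measured genes (median -0.32). Kdm1a, which encodes the LSD1 demethylase of the CoREST complex, was detected in 75.0% and 88.5% of cells of the E15 plates and in 58.2% and 62.3% of cells of the P2 plates. Its difference of -1.33 (range -1.92 to -0.74) was wider over plates than that of Ezh2, and it was -0.78 in matched cells (range -1.23 to -0.41). Kdm5a, an H3K4 demethylase, differed by -0.87 in all cells and by 0.003 in matched cells. Kdm4a, an H3K9 and H3K36 demethylase, differed by -0.61 and Kdm3a, an H3K9 demethylase, by -0.59. The H3K27 demethylase Kdm6b, which counteracts EZH2, was detected in 94.2% of E15 and 96.3% of P2 cells, and was higher by a small difference (0.26, range 0.05 to 0.48). Mean Kdm6b RPKM was 15.5 and 22.4 in the E15 plates and 22.6 and 25.6 in the P2 plates, so E15 set B lay close to P2 plate 1.

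The other higher demethylase, Kdm5d, is encoded on the Y chromosome, and the plates differed in the sex of their cells. Cells with a Y-linked transcript and no Xist numbered 16 and 11 in the E15 plates and 42 and 20 in the P2 plates, and cells with Xist and no Y-linked transcript 24 and 22, and 0 and 8. Kdm5d was detected in 6 of 27 E15 and 17 of 62 P2 cells of the first kind and in 0 cells of the second kind. The difference of 0.45 in all cells was 0.06 when only cells with a Y-linked transcript and no Xist were compared. The X-linked relatives Kdm5c and Kdm6a, which escape X inactivation, were mixed (0.18, range -0.07 to 0.45, and 0.01, range -0.11 to 0.14). Within E15, Kdm5c was detected in 55.6% of cells with Y-linked transcripts and 52.2% of cells with Xist, and Kdm6a in 33.3% and 32.6%. Within P2 the shares were 38.7% and 75.0% for Kdm5c and 32.3% and 25.0% for Kdm6a, with only 8 cells with Xist.

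Of 4 measured arginine methyltransferases, Prmt5, which makes symmetric dimethylarginine, was the lower one, at -0.41 in all cells and 0.15 in matched cells. Prmt2 (0.18), Prmt6 (-0.13) and Prmt9 (-0.09) were mixed. Dnmt1, the maintenance DNA methyltransferase, was detected in 29.8% of E15 and 22.2% of P2 cells and was mixed (-0.17, range -0.41 to 0.08). The de novo enzymes Dnmt3a and Dnmt3b were not measured, with detection in 4.96% and 5.56% of cells for Dnmt3a and 3.31% and 0.926% for Dnmt3b. TET dioxygenases oxidise methylcytosine. Tet2 was detected in 75.2% and 60.2% of cells (-0.81, range -1.08 to -0.55) and Tet3 in 53.7% and 29.6% (-0.79, range -1.09 to -0.49), and both kept the sign in matched cells, at -0.75 and -0.65. Tet1, detected in 28.1% and 23.1% of cells, was mixed at -0.15.

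In all, 20 members did not reach the 10% limit at either age. Besides those given above they were Hdac7, Hdac8, Hdac10, Hdac11, Sirt3, Kat2a, Setd1a, Setd4, Setd6, Setdb2, Suv39h2, Kdm4d, Kdm8, Prmt3, Prmt7 and Prmt8. Kdm4d was detected in 0 cells, which allows a share of up to 2.48% at E15 and 2.78% at P2, and 1 E15 cell held reads of it below the limit, at 0.15 RPKM. Exons of 38 of the 85 members overlap another gene, and for Hdac4, Kdm3b and Prmt6 the overlap exceeds 20% of the exon length among measured members.

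In all 9 pairs of related enzymes examined, the share of cells with both detected was smaller at P2. Both Hdac1 and Hdac2 were detected in 39 of 121 E15 cells (32.2%) and 6 P2 cells (5.56%), and neither was detected in 16.5% and 51.9%. For Ezh1 and Ezh2, neither was found in 15.7% and 43.5% of cells. Tet2 and Tet3 occurred together in 41.3% and 19.4% of cells, Kdm5a and Kdm5b in 68.6% and 39.8%, and Ehmt1 and Ehmt2 in 26.4% and 11.1%. Neither Ep300 nor Crebbp was detected in 0.826% and 6.48% of cells, neither Kdm6a nor Kdm6b in 4.96% and 2.78%, and neither Kmt2c nor Kmt2d in 3.31% and 4.63%. A transcript without reads in a single cell may still be present, and the shares depend on the number of genes detected.

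**Figure D4:**
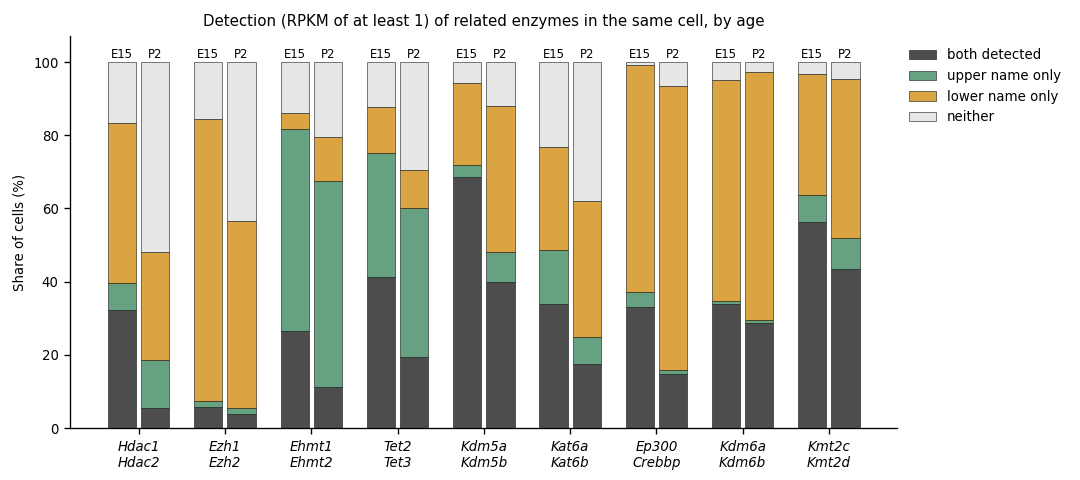
Share of cells (y axis, percent) in which both, 1 or neither of a pair of related enzymes was detected at RPKM of at least 1, by age. Cells with neither Hdac1 nor Hdac2 make up 16.5% at E15 and 51.9% at P2, while cells with neither Kmt2c nor Kmt2d stay under 5% at both.

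Within an age, cells were split by whether Eomes was detected: 77 with and 44 without at E15, and 78 with and 30 without at P2. A member counts when its difference, cells with Eomes minus cells without, is at least 0.5 with the same sign in both plates. At E15, 6 of 65 members were higher in cells with Eomes and 0 were lower, against 6.7% and 1.11% of all measured genes, and the median of the members was 0.15 beside 0.16 for all genes. Cells with Eomes also had more genes detected (median 2999 and 2599) and more often at least 3 cell cycle genes (40.3% and 13.6%). The 6 were the Polycomb genes Rnf2 (1.13) and Suz12 (0.67), Hdac9 (1.13), Kdm1a (1.04), the H3K9 methyltransferase Setdb1 (0.75) and Kmt2c (0.73). Rnf2 was detected in 57.1% of cells with Eomes and 34.1% without, and its difference was 1.08 in set A and 1.13 in set B. Kmt2c was detected in 75.3% and 43.2% of these cells, and its difference was 0.73 and 0.74 in the plates. The Kdm1a difference was 0.98 and 0.72 within the plates and smaller than the pooled value in each. Set B held more cells with Eomes (75.4% and 51.7%) and a higher Kdm1a level (4.00 and 3.14). With cells matched on detected genes, 2 members were higher and 2 lower at E15.

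At P2, 1 member was higher with Eomes and 2 were lower, against 5.38% and 1.33% of all measured genes. Prmt2, an arginine methyltransferase, had a mean of 33.0 RPKM in cells with Eomes and 3.94 RPKM in cells without (1.15, with 1.56 and 0.72 in the plates). The share of cells with Prmt2 detected differed less, at 41.0% with Eomes and 33.3% without, where 10 cells held it. The highest values were 240.2 and 65.0 RPKM. Hdac3 and Hdac9 differed by -0.77 and -0.78. Cells with and without Eomes had 2068 and 1960.5 genes detected (medians). The median differences were 0.11 for the members and 0.11 for all genes, and 35.9% and 13.3% of cells had at least 3 cell cycle genes. Hdac9, a class IIa deacetylase with known roles in neurons, had opposite signs at the 2 ages in each plate. At E15 it was detected in 37.7% of cells with Eomes (mean 15.2 RPKM) and 20.5% without (3.27 RPKM), with differences of 1.01 and 1.12 in the plates. At P2 it was detected in 30.8% with Eomes (13.5 RPKM) and 43.3% without (24.5 RPKM), with differences of -0.68 and -0.87. In all, 8 of 65 members had opposite signs in this way, beside 10.2% of all measured genes.

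**Figure D5:**
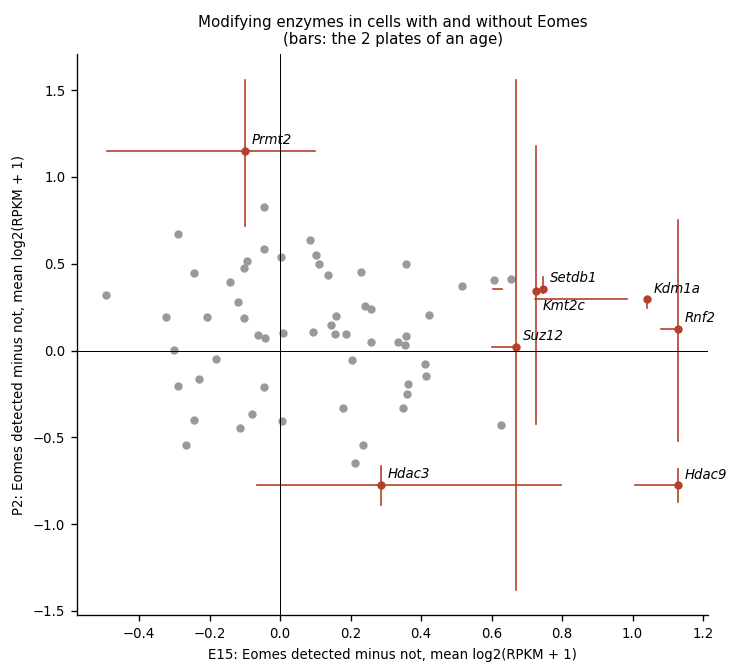
Difference between cells with and without Eomes detected at E15 (x axis) and at P2 (y axis) for the 65 measured enzymes, in mean log2(RPKM + 1); the 8 members past 0.5 in both plates of an age are named in red with bars that join their plate values. Hdac9 lies at 1.13 and -0.78, and Suz12 spans both signs over the P2 plates.

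Ezh2 was higher in cycling cells at both ages. In cells with at least 3 cell cycle genes detected, Ezh2 was higher by 1.30 at E15 (1.48 and 1.20 in the plates) and by 1.52 at P2 (1.54 and 1.54), and it was detected in 94.6% and 77.4% of cells at E15 and in 75.0% and 46.1% at P2. At E15, 7 of 65 members were higher by at least 0.5 in both plates and 0 were lower, against 12% and 0.814% of all genes: Ezh2, Hdac1 (1.28), Kdm1a (1.14), Hdac6 (0.96), Ehmt2 (0.62), Kdm6a (0.57) and Hdac4 (0.53). At P2, 5 were higher and 2 lower, against 8.05% and 1.45%: Ezh2, Kdm5c (1.01), Ehmt2 (0.75), Hdac3 (0.72) and Kat7 (0.64), and in the lower direction Kdm5b (-1.23) and Hdac4 (-0.66). Ezh2 and Ehmt2 were in both lists. Hdac4 had opposite signs at the 2 ages, which was also the case for 10.5% of all genes under a rule on sign alone. Cycling cells had more genes detected (medians 3173 and 2696 at E15, 2350.5 and 1981 at P2), and the part of that number in these differences was not tested.

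Partners and readers of the enzymes were described from lists of their own, beside 50.5% lower and 8.97% higher among all measured genes. In 3 of the 5 lists the share of lower genes was below that of all genes. Of 14 measured Polycomb partners 6 were lower (42.9%) and 0 higher (median -0.20), with the largest differences for Mtf2 (-0.82), Phc2 (-0.59) and Pcgf3 (-0.50). Of 19 corepressor partners of deacetylases 8 were lower (42.1%) and 2 higher (median -0.22). Rcor2, a CoREST scaffold that joins LSD1 to HDAC1 and HDAC2, was detected in 62.0% of E15 and 14.8% of P2 cells (-1.42, range -1.92 to -0.92), followed by Ncor1 (-0.87) and Gatad2b (-0.54). Of 9 partners of H3K4 methyltransferases 6 were lower (66.7%) and 0 higher (median -0.35), led by Hcfc1 (-1.31, range -1.58 to -1.03), Wdr82 (-0.86) and Ncoa6 (-0.82). Of 17 readers of acetyl or methyl marks 6 were lower (35.3%) and 1 higher (median -0.11). Cbx3, the heterochromatin protein HP1 gamma, was detected in 99.2% and 99.1% of cells and was higher by 1.14 (range 0.75 to 1.54), while Brd1 and Brd7 differed by -0.78 and -0.46. Of 7 measured DNA methylation readers and cofactors 4 were lower (57.1%) and 1 higher (median -0.44), with Gadd45g at -1.49, Uhrf2 at -0.81 and Tdg at -0.57.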

How the data were processed

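Cells were sorted, captured on C1 microfluidic chips, amplified with SMARTer chemistry and made into Nextera XT libraries of 75 bp reads, per the labels' protocols. The submitters' processing notes name bcl2fastq 2.15.0.4, cutadapt 1.9.1, STAR, featureCounts and GRCm38.p4, and the annotation and counting options are not given in the sources used here. The authors deposited RPKM values, with 1 column per cell and 1 table per age. With GENCODE M21 exon lengths, a median of 81.4% (E15) and 79.2% (P2) of values of up to 20 reads lay within 0.02 of a whole read. Intervals are Clopper-Pearson over the cells of an age and cover counting error only. They treat cells of 1 sample as independent and leave out differences between plates and animals. Reads carry no molecular identifiers.

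The members and lists were chosen with earlier results of these data known. Levels, signs over plates and splits were computed as defined with the results, with no test, because cells of 1 sample are not replicates. Named members were, per class, up to 4 with the largest difference between ages, up to 4 higher and 4 lower per age for Eomes, and a fixed list of 25; related genes were the 3 largest per list. Further members are named so that every member is accounted for. The cells of the pairs of E15 set B titles that repeat a number did not correlate more than other pairs (0.341 to 0.363, median of all pairs 0.350), so they were kept apart. Alternatives changed the pseudocount, scale, filter, detection limits and cells kept. The tools were matplotlib 3.10.9, scipy 1.17.1, pandas 2.3.3 and numpy 2.4.6 under Python 3.11.15. The age and split differences were tested on E15 cells divided at random, with picked genes changed by known folds. The matching was tested on made-up values, and the other steps were not tested in this way.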

Additional observations from a re-analysis of the deposited data

Results flagged for a closer look

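For 8 members the difference between cells with and without Eomes had 1 sign in both E15 plates and the opposite sign in both P2 plates, and the difference between the ages was not tested. Hdac9 stood out by size, at 1.13 at E15 and -0.78 at P2, and its smallest difference in any plate was 0.68 in absolute value. Hdac4 was at 0.63 and -0.43, Ehmt1 at -0.29 and 0.67, Dnmt1 at 0.21 and -0.65, and Sirt2 at -0.24 and 0.45. Smaller opposite values were found for Kdm3a (0.42 and -0.15), Hdac5 (0.36 and -0.25) and Setd1b (-0.14 and 0.40). The share of members, 12.3%, lay near the 10.2% of all measured genes.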

How the results depend on the processing

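No paired analysis was possible because the labels name no animals and give the ages no shared replicate numbers that mark a common source. Over all alternatives, 614 of 833 values of named members for the ages moved by less than the spread over plates, 200 moved more and 19 changed the sign of a member called lower or higher. The signs listed below are of such members, and uncalled members changed sign in 38 of the values. For the ages, changing the filter or the detection limit alters only which genes count as measured. The values of named members under those settings equal the main ones by construction and are part of the 614. For Eomes the numbers were 549 and 235 of 784, and no called difference changed sign. Few Eomes differences were called, however, and uncalled ones changed sign in more of the values than for the ages. The signs of uncalled Eomes differences are therefore not read as stable. With a pseudocount of 0.1 the median age difference was -0.69, on a TPM scale -0.58, with no filter -0.22 and with a detection limit of 5 RPKM -0.41. The medians of all genes under these settings were -0.51, -0.38, -0.019 and -0.31. With mean RPKM compared on a log2 scale 25 members were lower and 10 higher (26.9% and 18.2% of all genes), and the signs of Kmt2c (0.18), Setd3 (0.0023) and Setd5 (0.47) turned. Without E15 set B 11 were higher (18.4%), without P2 plate 1 9 (18.7%), and without cells above 20% mitochondrially encoded RPKM 2 (5.99%). Only in cells with a Y-linked transcript and no Xist, 21 were lower (34.5% of all genes). In cells matched on detected genes 17 were lower and 10 higher (21.1% and 25.0%, median -0.0030), and the signs of Ezh2 (0.21), Hdac3 (0.61), Hdac6 (0.12), Kdm5a (0.0029), Kmt5a (0.035), Prmt5 (0.15), Rnf2 (0.075), Sirt2 (0.092) and Suz12 (0.017) turned. When matching was limited to cells without 3 cell cycle genes, 11 were lower and 11 higher (22.4% and 23.0% of all genes, median -0.039), and Kdm5a (1.02), Kmt2c (0.15), Prmt5 (0.035), Rnf2 (0.45), Setd3 (0.43), Sirt2 (0.0052) and Suz12 (0.29) turned. The cause of these changes was not tested.

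Counts for Eomes were unstable, and each is given with the share of all measured genes counted the same way. At E15, members higher numbered 14 on the TPM scale (16.2%), 14 with the pseudocount at 0.1 (16.8%), 3 with Eomes above 0 (6.53%), 2 in matched cells (2.88%), 3 without cells above 20% mitochondrially encoded RPKM (5.63%), 14 without set A (19.0%) and 15 without set B (25.9%). Members lower numbered 2 with the log2 of the mean (5.93%), 2 in matched cells (5.32%), 1 without cells with cell cycle genes (1.20%), 3 without cells above 20% mitochondrially encoded RPKM (3.26%), 9 without set A (12.0%) and 5 without set B (6.54%). At P2, members higher numbered 10 with a pseudocount of 0.1 (13.5%), 13 with the log2 of the mean (20.4%), 8 on the TPM scale (12.0%), 4 with an Eomes limit of 5 RPKM (5.03%), 3 with Eomes above 0 (6.21%), 2 in matched cells (3.36%), 5 without cells with cell cycle genes (6.65%), 2 without cells above 20% mitochondrially encoded RPKM (5.00%), 14 without plate 1 (22.3%) and 11 without plate 2 (18.0%). Members lower numbered 4 on the TPM scale (3.47%), 4 with the pseudocount at 0.1 (3.14%), 1 with an Eomes limit of 5 RPKM (0.801%), 1 with Eomes above 0 (1.57%), 6 without plate 1 (8.81%) and 12 without plate 2 (11.5%). With 1 plate left the rule asks for the sign and size in that plate only.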

Other observations

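In the 80 cells matched on detected genes, 6 members that were mixed or lower in all cells were higher at P2 in every pair of plates: Kat8, a MYST acetyltransferase (0.87), Hdac9 (0.86), Ehmt2 (0.52), Suv39h1 (0.52), Dnmt1 (0.44) and Kdm3b (0.28). With the 4 that were higher in all cells they make 10 of 67, beside 25% of all measured genes higher there. Detection of Dnmt1 there was 20.0% of E15 and 32.5% of P2 cells, and that of Ehmt2 17.5% and 30.0%. In the same cells 10.0% at E15 and 47.5% at P2 had at least 3 cell cycle genes, and the median sum of glutamatergic neuron genes was 950.7 and 264.5 RPKM. The part of these differences between the matched cells in the 6 values was not tested.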
